A study of Rattus norvegicus with 12 samples.

Results

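Carbonic anhydrases interconvert carbon dioxide and bicarbonate and so set how fast protons are taken up and released. Signals of 7 genes of this family, Car2, Car3, Car4, Car8, Car11, Car12 and Car14, were read in L6 dorsal root ganglia, which hold the cell bodies of the sensory neurons of that spinal nerve. The genes were selected by matching the accession of each gene probe to these rat symbols. Each had 1 probe, so the 7 genes account for 7 of the 30367 distinct gene probes on the array. The list was put together with results of the same 3 groups known. The members' values are therefore given as a description, with the fit's standard error (SE) and without a p-value.

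All rats were males of the inbred strain Fischer 344, and the tissue was the L6 ganglion in every group. The young_AL rats were 6 months old and ate ad libitum. The old_AL rats were 25 to 28 months old on the same ad libitum feeding. The old_CR rats were of that older age too but had received food on 3 days of each week from the age of 6 weeks, a caloric restriction of about 40%. Each group had 4 rats and 4 one-colour Agilent arrays. The comparison of old_AL with young_AL concerns age, that of old_CR with old_AL concerns diet in old rats, and that of old_CR with young_AL combines both. The first and the second share the old_AL arrays, and a high old_AL value therefore enters them with opposite signs.

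The catalytic forms of the family differ in where they sit. Car2 and Car3 are cytosolic, Car2 being abundant in red cells, osteoclasts and some neurons and Car3 in muscle and fat. Car4 is held on the outer cell surface by a lipid anchor and lines many capillaries, while Car12 and Car14 span the membrane with the enzyme outside. Car8 and Car11 lack enzyme activity. Car8 is an intracellular protein that binds the inositol trisphosphate receptor Itpr1, and Car11 is secreted and belongs to the forms that bind neurexins. In sensory ganglia the family is known for its part in neuronal acid handling, and Car8 for its part in calcium signalling and pain sensitivity.

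The array of old_AL 1 stood apart. Its signal at the 75th percentile came to 7662 against 2634 to 3110 elsewhere, it held 4369 uneven spots against 1 to 215, and it correlated with the rest at a median of 0.929 against 0.971 to 0.994. Differences are given on the 11 other arrays (n = 3 for old_AL, n = 4 for the other groups), and the 12-array values are given beside those that turned or lost their call. Among the 11, old_AL 4 also differed from the rest. Its signals were less spread (upper over lower quartile 34.5, elsewhere between 60.5 and 72.8), its median correlation of 0.971 was the lowest, and without it 2 genes in place of 222 were called between old_CR and old_AL by limma. No old rat was on the slide of the young_AL arrays, and age and slide cannot be told apart. The old_AL and old_CR arrays shared a slide but filled different rows of it, so diet and row cannot be told apart. Of 10 pan-neuronal markers, 9 had a probe and all 9 were well above background on all 12 arrays, as were 11 of 12 myelinating Schwann cell markers. The same held for 8 of 8 fibroblast and 11 of 12 macrophage markers. On each array 71.6% to 84.1% of gene probe spots were well above background, so this count cannot single out a cell type. In a ganglion, fewer cells of a type and less RNA per cell cannot be told apart.

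For 4 of the 7 genes the RefSeq table (build GRCr8) holds a promoter. Of these, 3 windows of 250 bases before the annotated start are shown on the gene's strand. They are those of Car4, whose groups lay furthest apart, of Car14, a surface form well above background on every array, and of Car11, whose signal varied least. Capitals mark ACGTG or its reverse complement CACGT, the core that hypoxia-inducible factors and several other factors bind.
Car4, chr10:70325108-70325357, plus strand: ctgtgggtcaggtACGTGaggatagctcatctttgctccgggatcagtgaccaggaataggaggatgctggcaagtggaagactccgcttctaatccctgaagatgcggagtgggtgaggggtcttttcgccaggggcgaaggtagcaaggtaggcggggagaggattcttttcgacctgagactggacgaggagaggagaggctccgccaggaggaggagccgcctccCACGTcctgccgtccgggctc
Car14, chr2:186138165-186138414, minus strand: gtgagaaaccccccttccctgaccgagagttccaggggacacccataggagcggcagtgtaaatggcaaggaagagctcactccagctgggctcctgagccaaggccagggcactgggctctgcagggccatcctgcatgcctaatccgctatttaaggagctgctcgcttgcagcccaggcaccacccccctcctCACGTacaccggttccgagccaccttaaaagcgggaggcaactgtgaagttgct
Car11, chr1:105306290-105306539, plus strand: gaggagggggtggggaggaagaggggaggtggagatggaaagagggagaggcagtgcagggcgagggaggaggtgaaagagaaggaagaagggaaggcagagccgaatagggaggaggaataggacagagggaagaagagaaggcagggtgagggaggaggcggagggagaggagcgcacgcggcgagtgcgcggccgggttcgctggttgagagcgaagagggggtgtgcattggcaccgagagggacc
The Car4 window held 2 matches, which began 237 and 21 bases before the start, and the Car14 window held 1, at 54 bases. The Car11 and Car12 windows held none. On both strands, ACGTG was found in 16.6% of the 33469 promoter windows of this length. The longer CACGTG, which contains ACGTG, was in none of the 4 windows against 5.59% of all. GGGCGG was in the Car12 window alone against 30.5% of all, and TATAAA was in none of the 4 against 12.9% of all. A match describes letters and not a bound site.

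**Figure D1:**
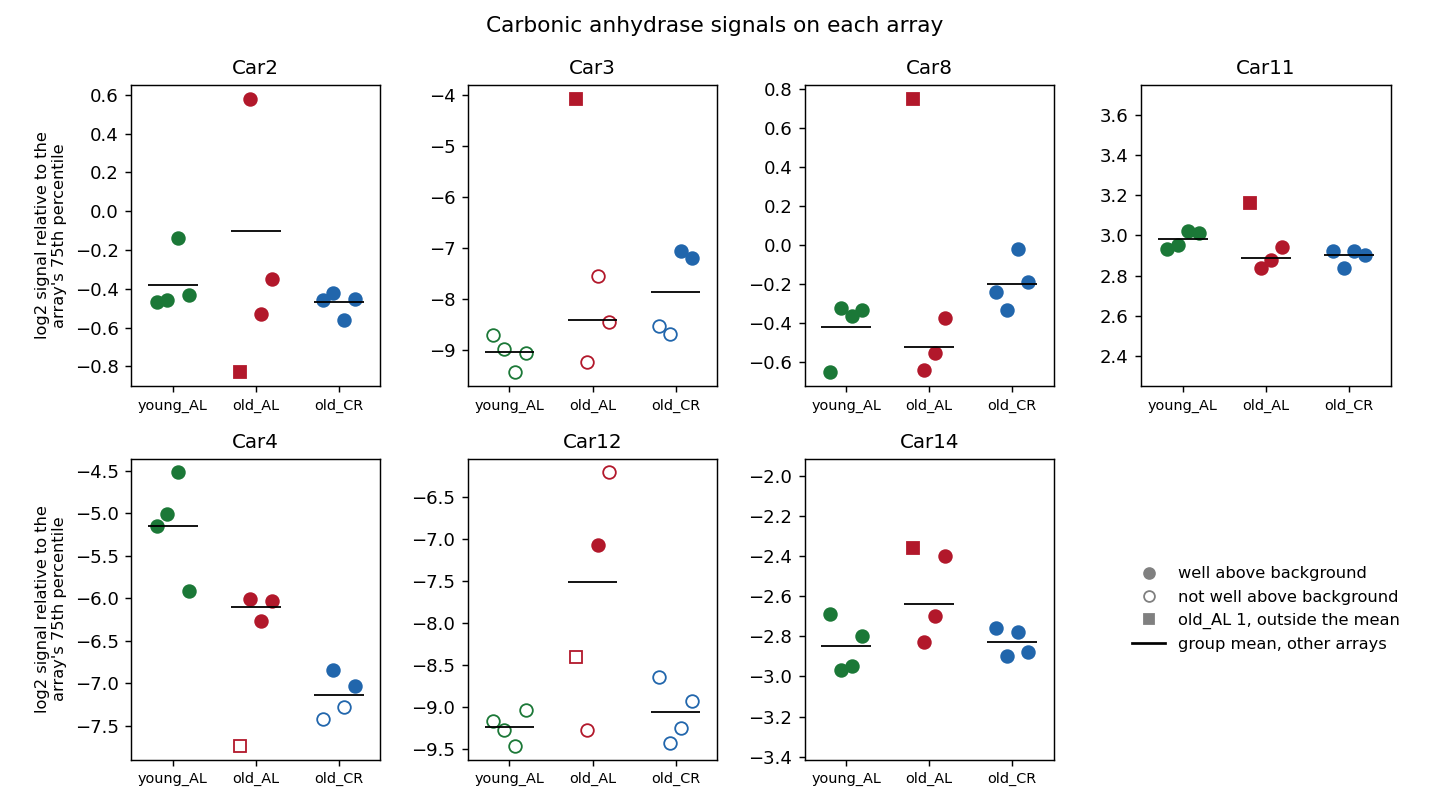
Log2 signal relative to each array's 75th percentile (vertical axis) for the 7 carbonic anhydrases in the 3 groups, 1 point per array, with filled points well above background, open points not, squares for old_AL 1 and lines at the mean of the other arrays. Car4 steps down from young_AL to old_AL to old_CR, Car2 has a single high array among the old_AL points, and Car3 and Car12 are open on most arrays; each panel has its own range, so heights are not comparable between genes.

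Values are log2 of the processed signal minus the array's 75th percentile. The Agilent Feature Extraction software flags each spot that is well above background. A probe was taken to be so on an array when the flag stood on a share of 0.5 or more of its spots. A gene entered the fit when its probe met this on at least 4 of the 11 arrays. By that filter 5 of the 7 members entered the fit and Car3 and Car12 did not. Car4 passed on 9 arrays, and Car2, Car8, Car11 and Car14 passed on every array. Levels of different probes depend on the probe as well as on the transcript, and no gene is ranked against another.

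Car4, the lipid-anchored surface form, had lower signals in both old groups. Its young_AL values were -5.15, -5.01, -4.52 and -5.92. Its values on old_AL 2, 3 and 4 were -6.01, -6.27 and -6.03, and on old_AL 1 it was -7.74. The old_CR values were -7.42, -6.84, -7.28 and -7.03. On the 11 arrays the 3 groups did not overlap, with every young_AL value above every old_AL value and every old_AL value above every old_CR value. The probe was well above background on all 4 young_AL arrays, on 3 of the 4 old_AL arrays (not on old_AL 1) and on 2 of the 4 old_CR arrays. On old_AL 4 and old_CR 2 the flag stood on 1 of its 2 spots.

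The Car4 difference was -0.95 ± 0.28 (log2, SE, n = 3 against 4; 95% interval -1.58 to -0.32) between old_AL and young_AL. It was -1.04 ± 0.28 (-1.67 to -0.41) between old_CR and old_AL, and -1.99 ± 0.26 (-2.58 to -1.41) between old_CR and young_AL. Because 2 old_CR arrays were not well above background, the differences that involve old_CR depend on signals at the limit. With those 2 arrays set to their lowest signal well above background, they were -0.93 against old_AL and -1.88 (3.68-fold lower) against young_AL. With old_AL 1 included, the age difference was -1.36 ± 0.40, and the diet difference -0.63 ± 0.40 with overlapping groups. The old_CR against young_AL value stayed at -1.99, with a wider SE of 0.40.

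Groups that did not overlap were common on these arrays. They made up 19.6% of genes for old_AL against young_AL, 23.5% for old_CR against old_AL and 15.8% for old_CR against young_AL on the 11 arrays. On 12 arrays the shares were 8.77%, 8.28% and 15.7%. Among the 5 fitted members, the groups did not overlap for Car4 in the first comparison, for Car4 and Car8 in the second and for Car4 and Car11 in the third. With 12 arrays the first and the third were the same members, and the second held none. The list was drawn up from these groups, so the counts describe it and support nothing further.

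The Car4 signal was close to the limit of the arrays, and the way background was handled changed the step between the ad libitum groups. The lowest spot well above background lay between -7.45 and -7.22 on the young_AL arrays, at -7.19, -6.75 and -6.37 on old_AL 2, 3 and 4, and between -7.33 and -7.09 on the old_CR arrays. When background was modelled with normexp and an offset of 50, the Car4 values ran from -4.57 to -3.87 in young_AL, from -4.26 to -4.20 in old_AL and from -4.97 to -4.69 in old_CR. The age difference was then -0.03 ± 0.13, with old_AL inside the young_AL range. The diet difference was -0.56 ± 0.13 and the old_CR against young_AL difference -0.59 ± 0.12, with old_CR below every array of both other groups. An offset shrinks differences of dim probes by its construction, and its part in these Car4 changes was not tested.

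Quantile normalization left the old_CR against young_AL difference of Car4 at -1.87 ± 0.35 and moved old_AL 4 below all 4 old_CR arrays (3.99 against 4.20 to 4.86, log2 signal). The age difference was then -1.55 ± 0.38 and the diet difference -0.32 ± 0.38. Leaving out each of the 11 arrays kept the 3 Car4 differences between -1.21 and -0.74, between -1.14 and -0.95 and between -2.25 and -1.78.

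**Figure D2:**
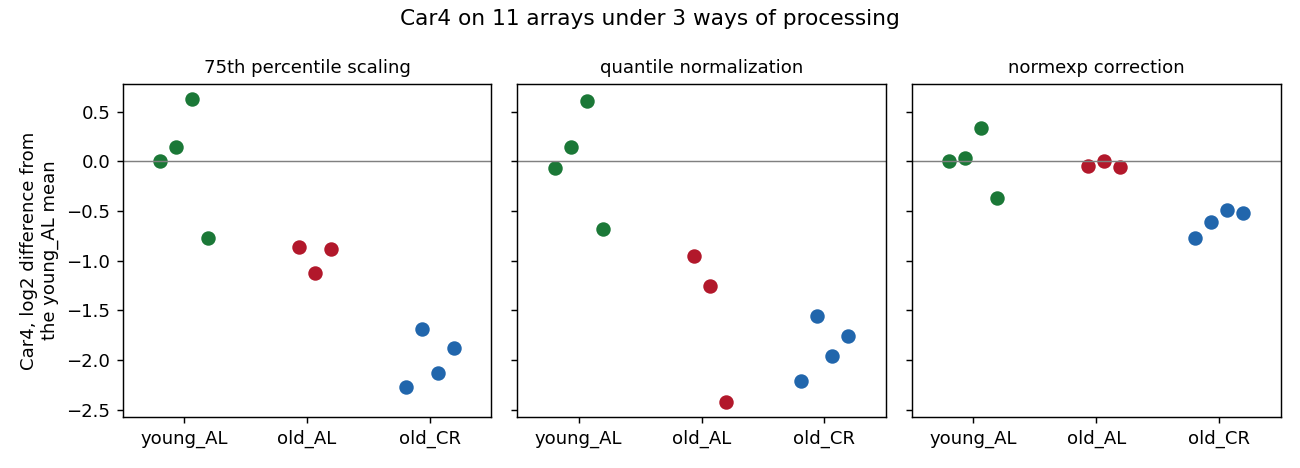
Car4 on the 11 arrays as the log2 difference from the young_AL mean (vertical axis) after 75th percentile scaling, quantile normalization and normexp background correction, 1 point per array. The old_CR points lie below all young_AL points in all 3 panels, while the old_AL points lie below young_AL in the first and second panels and inside its range in the third.

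Markers of blood vessels, where Car4 is known to sit, were read on the same arrays. Of 12 endothelial markers 11 had a probe, all of them well above background on all 12 arrays. Their summed signal, as a percent of the 75th percentile, was 901.6 to 987.5 in young_AL, 851.6 to 970.1 in old_AL (11 arrays) and 887.9 to 942.2 in old_CR. No endothelial gene was called by limma in any comparison on the 11 arrays (3, 6 and 2 of 11 at an unadjusted p under 0.05, where the shares of all genes were 23.1%, 26.4% and 18.3%). Pecam1, an adhesion molecule of endothelial junctions, was 0.45 ± 0.14 from young_AL to old_AL (limma adjusted p = 0.105) and -0.60 ± 0.14 from old_AL to old_CR (limma adjusted p = 0.061), and 0.24 and -0.40 on 12 arrays. Kdr, a receptor for vascular growth factor, was -0.23 ± 0.07 between old_CR and young_AL (limma adjusted p = 0.138). Pecam1 and Kdr did not pass the test, and the part of vessel RNA in the Car4 values was not tested.

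The genes whose centred profile lay nearest to that of Car4 over the 11 arrays, among 12337 genes with a symbol, were Tnc (tenascin C, an extracellular matrix protein) with a root mean square difference of 0.56, Itgb3 (integrin beta 3) with 0.58 and Gdf3 (a growth factor of the TGF-beta family) with 0.60. Tnc ran from -3.24 to -2.56 in young_AL, from -3.73 to -3.49 in old_AL and from -4.06 to -3.50 in old_CR. The Itgb3 value on old_AL 4 was -4.66, above all young_AL values (-5.87 to -5.00), so the nearest profiles still differed from Car4 on single arrays. Gdf3 was well above background on 5 of the 11 arrays.

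Car14, a membrane-spanning form, was measured with a single spot per array. It was -2.69, -2.97, -2.95 and -2.80 in young_AL, -2.36, -2.83, -2.70 and -2.40 on old_AL 1 to 4, and -2.76, -2.90, -2.78 and -2.88 in old_CR. The groups overlapped in all 3 comparisons, and old_AL 1 and old_AL 4 held the highest values. The Car14 difference was 0.21 ± 0.10 with age (95% interval -0.02 to 0.45), -0.19 ± 0.10 with diet (-0.42 to 0.05) and 0.02 ± 0.10 between old_CR and young_AL (-0.19 to 0.24). With 12 arrays the age and diet values were 0.28 ± 0.12 and -0.26 ± 0.12, and without old_AL 4 they were 0.09 ± 0.09 and -0.06 ± 0.09.

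Car12, the other membrane-spanning form, was not well above background on any young_AL or old_CR array and was so on 1 old_AL array, old_AL 3. Its values were -9.47 to -9.04 in young_AL and -9.44 to -8.65 in old_CR, and -8.41, -9.28, -7.07 and -6.21 on old_AL 1 to 4. On old_AL 3 its 2 spots read 5.573 and 68.55 in processed signal, a spread of 2.56 (SD, log2), so the flag rested on 1 spot. On old_AL 4 both spots read between 35.88 and 38.59 without the flag. No fold is given, since the old_AL mean of -7.52 lies below the lowest signal that is well above background in young_AL (a mean of -7.37).

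Car3, the form of muscle and fat, was likewise outside the fit. It was not well above background on any young_AL array (-9.43 to -8.70) nor on old_AL 2, 3 and 4 (-9.22, -7.54 and -8.44). On old_CR 1 and 2 it was at -8.52 and -8.69, and on old_CR 3 and 4 at -7.06 and -7.19, where 1 of its 2 spots carried the flag. On old_AL 1 both spots carried the flag, but 1 of the 2 was an outlier and was set to missing. The value of -4.08 there rests on 1 spot. The old_CR mean of -7.87 lay below the limit of the young_AL arrays, and no fold is given.

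Adipocyte markers were read beside Car3, since fat expresses it. Of 12 such markers 9 had a probe and 6 entered the fit. Their summed signal was 191.3 to 211 percent of the 75th percentile in young_AL, 308.5 to 416.2 in old_AL (11 arrays) and 296.1 to 371.6 in old_CR. The adipsin gene Cfd rose with age by 1.99 ± 0.22 (n = 3 against 4, limma adjusted p = 0.0081), the 1 adipocyte gene called in that comparison. Of all genes, 2% were called higher with age and 0.787% between old_CR and young_AL. At an unadjusted p under 0.05 were 5, 4 and 6 of the 6 in the 3 comparisons, against 23.1%, 26.4% and 18.3% of all genes. On 12 arrays they were 3, 1 and 3, against 6.71%, 5.96% and 2.72%. In old_CR against young_AL, Cfd, Cidea (a lipid droplet protein) and Adipoq (adiponectin, a fat cell hormone) rose. Adipoq was not well above background on any young_AL array and was on all 4 old_CR arrays. Set against the limit of the young_AL arrays, Adipoq was at least 3.46-fold higher in old_CR. The limma test used the measured values and not that limit (limma adjusted p = 0.0269). That Adipoq call was kept in 3 of 11 fits that left out 1 array, against 4 for Cfd and 9 for Cidea. Adipoq was highest on old_CR 3 and 4 (-4.54 and -5.41) and on old_AL 3 (-5.61). The summed adipocyte signal was instead highest among the 11 arrays on old_AL 2, at 416.2, where Car3 was at -9.22. The median centred value of the 6 adipocyte markers was 0.05 on old_AL 2. That value was highest on old_AL 3, old_CR 3 and old_CR 4 (0.83, 0.79 and 0.47), where Car3 was at -7.54, -7.06 and -7.19. On old_AL 1, where both spots of Car3 carried the flag, Adipoq was at -8.54 and not well above background. On 12 arrays none of these genes was called (limma adjusted p from 0.257 to 1). Of 12 skeletal muscle markers, 10 were fitted and none was called on the 11 arrays. At an unadjusted p under 0.05 were 1, 0 and 1 of the muscle genes, against 23.1%, 26.4% and 18.3% of all genes. Their summed signal reached 132.2 on young_AL 2, where Car3 was not well above background, against 38.07 to 69.79 on the other 10 arrays. The part of fat or muscle RNA in the Car3 values was not tested.

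Car2, the cytosolic form, was measured with 10 spots per array, all of them well above background on all 12 arrays. Its values were -0.47, -0.46, -0.14 and -0.43 in young_AL, -0.83, 0.58, -0.53 and -0.35 on old_AL 1 to 4, and -0.46, -0.42, -0.56 and -0.45 in old_CR. On old_AL 2 it was above all other arrays, and its 10 spots there read 3883 to 4106 in processed signal. Apart from old_AL 2 and old_AL 1, the arrays lay between -0.56 and -0.14. The spread among the 10 spots of an array was 0.0212 to 0.0592 (SD, log2) on the 11 arrays.

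The Car2 difference was 0.28 ± 0.22 with age (95% interval -0.22 to 0.78), -0.37 ± 0.22 with diet (-0.87 to 0.13) and -0.09 ± 0.21 between old_CR and young_AL (-0.55 to 0.37), and the groups overlapped each time. Without old_AL 2 the age and diet differences were -0.06 and -0.03, so both rest on that array. The nearest profiles to Car2 were those of Mrpl47 (a mitochondrial ribosomal protein, 0.12), Coch (cochlin, 0.13) and Dzip1l (a ciliary protein, 0.13). Each of the 3 was highest on old_AL 2.

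Markers of red cells were also high on old_AL 2. Of 12 erythroid markers 9 had a probe and 8 entered the fit. Their median centred value was 1.19 on old_AL 2 and -0.54 to 0.24 on the other 10 arrays. Their summed signal was 7044 to 10270 percent of the 75th percentile in young_AL, 8458 to 12210 in old_AL and 7356 to 7721 in old_CR. Slc4a1, the bicarbonate and chloride exchanger of the red cell membrane, was -0.26 on old_AL 2 and -4.03 to -1.99 on the other 10. Hbb (beta globin) was highest on old_AL 2 and old_AL 4, at 6.82 and 6.76, against 6.09 to 6.63 on the other 9. Klf1, a transcription factor of the red cell lineage, was the only erythroid gene called and rose with age by 0.86 ± 0.17 (limma adjusted p = 0.0388 on the 11 arrays, 0.578 on 12). The Klf1 call was kept in 2 of 11 fits that left out 1 array. Of all genes, 2% were called higher with age. At an unadjusted p under 0.05 were 6, 3 and 0 of the 8 erythroid genes, against 23.1%, 26.4% and 18.3% of all genes. On 12 arrays they were 3, 2 and 0 of 9, against 6.71%, 5.96% and 2.72%. The median difference of the list with age was 0.86 on the 11 arrays and 0.51 on 12. On young_AL 3, the highest young_AL array for Car2, the erythroid median was 0.11, against -0.54 to -0.31 on the other young_AL arrays. On old_CR 2 the erythroid median was higher, at 0.24, while Car2 was at -0.42. Klf1 was highest on old_AL 4 (-3.26, against -3.74 on old_AL 2), where Car2 was at -0.35. Of the 8 osteoclast markers, 3 entered the fit and none was called on the 11 arrays. At an unadjusted p under 0.05 were 3, 1 and 0 of them, against 23.1%, 26.4% and 18.3% of all genes. The part of red cell RNA in the Car2 signal was not tested.

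**Figure D3:**
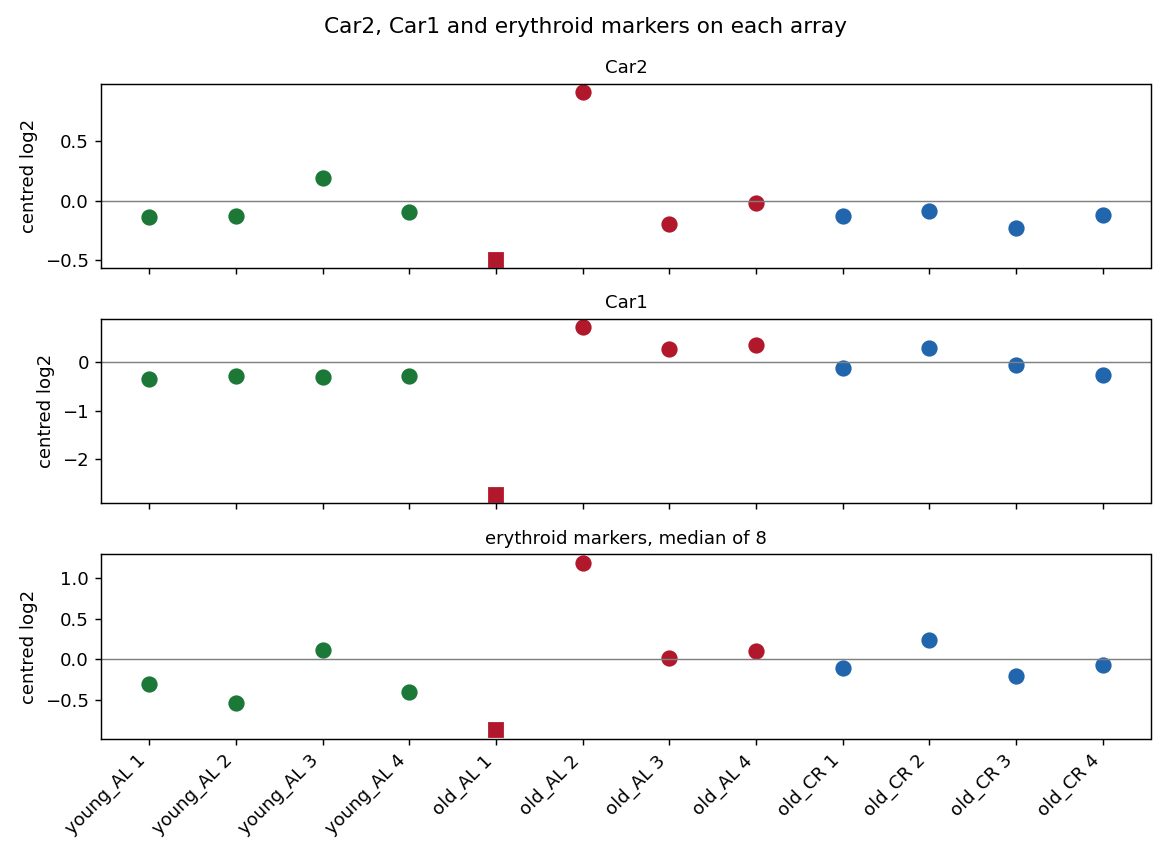
Centred log2 signal (vertical axes) of Car2, of Car1 and of the median of 8 erythroid markers on each of the 12 arrays, with green, red and blue for young_AL, old_AL and old_CR and a square for old_AL 1, which is outside the centring. All 3 panels are highest on old_AL 2, and Car1 is also above the young_AL arrays on old_AL 3 and 4.

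Car1, the red cell form that is a neighbour of Car2, was not among the 7 genes and was tested. On chromosome 2 the RefSeq table lists Car2, Car3, Car1 and Car13 next to each other. Car1 was -3.91 to -3.86 in young_AL, -2.85, -3.29 and -3.22 on old_AL 2, 3 and 4, and -3.83 to -3.27 in old_CR. It rose with age by 0.76 ± 0.14 (1.69-fold, n = 3 against 4, limma adjusted p = 0.0288), and every old_AL value was above every young_AL value. On old_AL 1 it was -6.32 and not well above background, and with 12 arrays the difference was -0.04 ± 0.62. The call was kept in 6 of 11 fits that left out 1 array. Between old_CR and old_AL the difference was -0.49 ± 0.14 (limma adjusted p = 0.0838) on 11 arrays and 0.31 ± 0.62 on 12. The erythroid median was 1.19, 0.01 and 0.10 on old_AL 2, 3 and 4, and 0.11 on young_AL 3, where Car1 was at -3.88. On old_CR 2, the highest old_CR array for Car1 at -3.27, the erythroid median was 0.24, against -0.21 to -0.07 on the other old_CR arrays. The share of red cell RNA in the Car1 signal was not tested.

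The remaining carbonic anhydrases were not called in any comparison. Of 9 genes of the family outside the list, 8 had a probe and 7 were fitted, and Car5a was too dim for the fit. For old_AL against young_AL 1 of the 7, Car1, was called higher and none lower. The share of all 20849 genes called was 2% higher and 1.25% lower. None of the 7 was called for old_CR against old_AL or for old_CR against young_AL by limma. The shares of all genes called there were 0.269% and 0.787% higher and 0.796% and 1.63% lower. At an unadjusted p under 0.05 were 2 and 2 of the 7, against 26.4% and 18.3% of all genes. The median difference of the 7 was 0.35, -0.27 and -0.08 in the 3 comparisons, against 0.03, -0.05 and -0.02 over all genes and -0.09, -0.19 and -0.08 over the 5 fitted members. On 12 arrays the medians of the 7 were -0.04, 0.13 and -0.08, so the age and diet values turned. Without old_AL 4 those of age and diet were 0.04 and -0.07. Car9, a hypoxia-induced surface form, was -0.23 ± 0.08 between old_CR and young_AL (limma adjusted p = 0.174), Car5b, a mitochondrial form, 0.20 ± 0.08 (limma adjusted p = 0.257), and Car15 was -0.45 ± 0.20 between old_CR and old_AL (limma adjusted p = 0.182), against 0.13 on 12 arrays. The 2 probes of Car13 differed in direction with age (0.16 and -0.28), and on 12 arrays the first of them turned to -0.47. With 12 arrays none of the 7 was called or had an unadjusted p under 0.05, and the shares of all genes called were 0.0191%, 0.00478% and 0.0191%.

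Car8, the inactive form that binds Itpr1, was higher in the restricted rats than in the other old rats on the 11 arrays. Its values were -0.65, -0.32, -0.36 and -0.33 in young_AL, -0.64, -0.55 and -0.37 on old_AL 2, 3 and 4, and -0.24, -0.33, -0.02 and -0.19 in old_CR. All 4 old_CR values were above the 3 old_AL values, by a smallest gap from -0.37 to -0.33, and overlapped with young_AL. On old_AL 1 Car8 was 0.75, above every other array.

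The Car8 difference was 0.32 ± 0.10 with diet (95% interval 0.09 to 0.55), -0.10 ± 0.10 with age (-0.33 to 0.13) and 0.22 ± 0.10 between old_CR and young_AL (0.01 to 0.44). With old_AL 1 the diet difference was 0.01 ± 0.26 and the age difference 0.21 ± 0.26, with overlap in both. Leaving out each of the 11 arrays kept the diet difference between 0.26 and 0.40.

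Car11, the inactive secreted form, was nearly level. Its values were 2.93, 2.95, 3.02 and 3.01 in young_AL, 3.16, 2.84, 2.88 and 2.94 on old_AL 1 to 4, and 2.92, 2.84, 2.92 and 2.90 in old_CR. It spanned 0.18 on the log2 scale over the 11 arrays, against 2.90 for Car4, 1.14 for Car2, 0.63 for Car8 and 0.57 for Car14. All old_CR values lay below all young_AL values, with 2.92 and 2.93 as the nearest pair. The Car11 difference was -0.08 ± 0.04 between old_CR and young_AL, a mean 1.06-fold lower, -0.09 ± 0.04 with age and 0.01 ± 0.04 with diet. Median centring moved the last 2 to -0.19 and 0.11, and 12 arrays to -0.02 and -0.06.

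**Figure D4:**
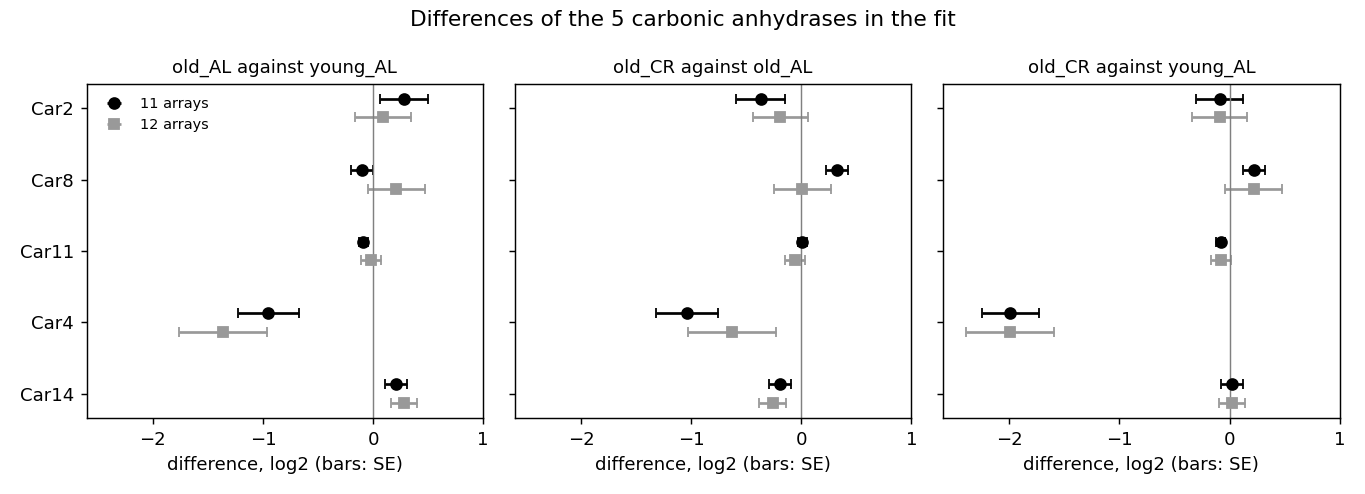
Log2 differences (horizontal axis, bars are the SE of the fit) of the 5 carbonic anhydrases in the fit, in black on 11 arrays and in grey on all 12, for the 3 comparisons. Car4 lies to the left of 0 in every panel, from -1.99 to -0.63, and the other 4 stay between -0.37 and 0.32.

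Of the binding partners of the inactive forms, none of 5 was called. The receptors Itpr1, Itpr2 and Itpr3 and the neurexins Nrxn2 and Nrxn3 were well above background on all 12 arrays. None of the 5 passed the limma test for age, for diet or between old_CR and young_AL (2, 1 and 3 at an unadjusted p under 0.05). The shares of all genes at that unadjusted p were 23.1%, 26.4% and 18.3%. Itpr1, the Car8 partner, was 0.20 ± 0.09 with age (limma adjusted p = 0.204) and -0.14 ± 0.28 on 12 arrays. A second Itpr1 probe, well above background on all 11 arrays, gave 0.47. The probes of Nrxn2 differed too, with -0.02 for the brightest and 0.62 and 0.24 for the others with age, and -0.04, -0.67 and -0.20 with diet.

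Carriers of bicarbonate take up the product of these enzymes. Of 15 listed, 11 were fitted. With age 1 was called lower, against 1.25% of all genes. It was Slc4a4, a sodium and bicarbonate cotransporter of glia and neurons, which fell by 0.24 ± 0.05 on the log2 scale (limma adjusted p = 0.0420). Its young_AL values were 1.53 to 1.61 and those of old_AL 2, 3 and 4 were 1.22, 1.36 and 1.36. A second Slc4a4 probe gave -0.06, and 1 of 11 fits that left out an array kept the call. None was called in the other comparisons by limma (2 and 7 of 11 at an unadjusted p under 0.05, against 26.4% and 18.3% of all genes). On 12 arrays the Slc4a4 age difference was -0.33 ± 0.10 (limma adjusted p = 0.544). Cftr, the chloride and bicarbonate channel, was well above background on all 4 young_AL arrays (-5.10 to -4.11), on old_AL 3 and 4 (-5.38 and -4.51) and on old_CR 2 and 4 (-5.64 and -6.33). On old_AL 2, old_CR 1 and old_CR 3 it was not, at -7.25, -7.15 and -7.82. The Cftr test between old_CR and young_AL did not pass (limma adjusted p = 0.0873). With the 2 dim old_CR arrays set to their lowest signal well above background, the difference was -2.13. A second Cftr probe was not well above background on any of the 11 arrays.

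Of 19 carriers of protons, lactate, chloride, water and ammonium, 14 were fitted. None was called with age by limma (3 at an unadjusted p under 0.05, against 23.1% of all genes). Slc12a5, the chloride extruder KCC2 of neurons, was called higher in old_CR in both comparisons, where 0.269% and 0.787% of all genes were. Its values were -4.09 to -3.90 in young_AL, -3.95, -3.88 and -3.99 on old_AL 2, 3 and 4, and -3.62 to -3.58 in old_CR, with no overlap. Slc12a5 rose by 0.34 ± 0.05 against old_AL (limma adjusted p = 0.0289) and by 0.40 ± 0.04 against young_AL (limma adjusted p = 0.0066). The second call was kept in all 11 fits that left out an array and the first in 6. After quantile normalization the second was lost, and in a fit of the compared groups alone the first was. Both were lost with a block for the replicate number. On old_AL 1 Slc12a5 was -3.66, and neither was called on 12 arrays. A second Slc12a5 probe was not well above background on any of the 11 arrays. Slc9a5, a sodium and proton exchanger, was 0.27 ± 0.06 against old_AL (limma adjusted p = 0.0648) and -0.01 ± 0.23 on 12 arrays.

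Of 10 acid sensors of the ganglion, 9 were fitted. None was called with age, with diet or between old_CR and young_AL by limma (2, 2 and 1 at an unadjusted p under 0.05). The shares of all genes at that unadjusted p were 23.1%, 26.4% and 18.3%. Asic3, an acid-sensing channel of sensory neurons, was 0.26 ± 0.09 between old_CR and young_AL (limma adjusted p = 0.184).

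**Figure D5:**
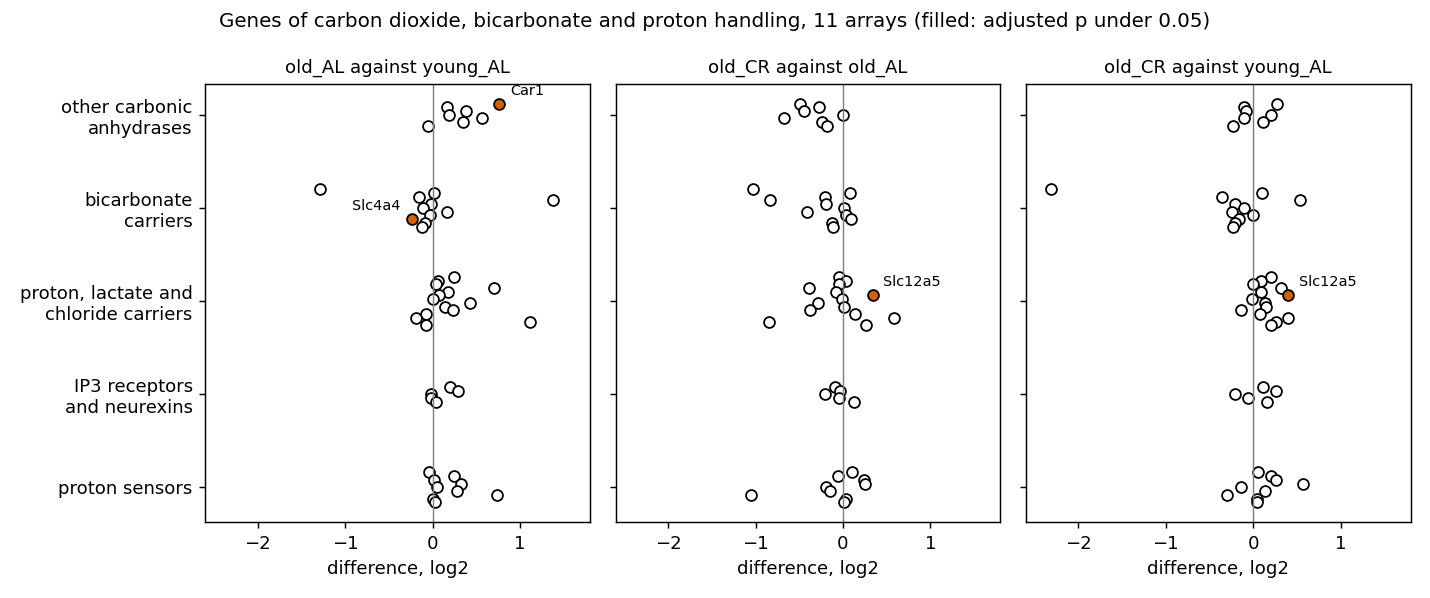
Log2 differences (horizontal axis) of 46 fitted genes in 5 lists around the carbonic anhydrases for the 3 comparisons on 11 arrays, 1 point per gene, filled where the limma adjusted p was under 0.05. The filled points are Car1 and Slc4a4 for old_AL against young_AL, and Slc12a5 for old_CR against old_AL and against young_AL.

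Over the 5 lists, 46 of 58 genes were fitted. With age 1 rose and 1 fell, with diet 1 rose and none fell, and between old_CR and young_AL 1 rose and none fell. The shares of all genes called were 2%, 0.269% and 0.787% higher and 1.25%, 0.796% and 1.63% lower. The median difference of the 46 was 0.05, -0.07 and 0.07, against 0.03, -0.05 and -0.02 over all genes. On 12 arrays none of the 46 was called by limma (5, 3 and 3 at an unadjusted p under 0.05). The shares of all genes at that unadjusted p were 6.71%, 5.96% and 2.72%.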

How the data were processed

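Total RNA of 12 ganglion samples was labelled with the dye Cy3 for one-colour arrays, per the labels' protocols. The deposited intensities are linear spot signals made by Agilent Feature Extraction 10.7, per the submitters' processing notes. The processed signal was background-subtracted by that software with no scaling between arrays, per the file headers. The deposited series table held the same values, with a largest difference of 0.

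Values are log2 processed intensities from which the array's own 75th percentile over gene probe spots was subtracted. Control spots were left out, outlier-flagged spots were set to missing, and spots of a probe were averaged. The brightest probe stood for a gene, and it needed values on at least 2 arrays of every group. Of 30367 probes, 17998 matched 15154 symbols in a RefSeq table of GRCr8, used for names and promoters alone because the files name an older build. Groups were compared with limma 3.58.1 in R 4.3.3 (Benjamini-Hochberg over 20849 genes, threshold 0.05, all groups sharing a spread), and the fit was tested on simulated data. Intervals are 95%, and the number of arrays limits the precision.

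The members, the 5 pathway lists, the 13 marker lists and the leaving out of old_AL 1 were chosen with earlier results of these data known. Named genes were the 7 members, up to 3 genes of smallest p per list and comparison, and the 3 genes nearest in profile to each fitted member spanning at least 1 on the log2 scale. Some genes of the pathway lists are not reported here, and the list counts leave them out. Car5a and Car13 were named after their values were seen. The replicate numbers of the labels were not used in the fit. Alternatives were all 12 arrays, other scaling and background correction, other filters, the mean of probes, the series table, the compared groups alone, a block for the replicate number, and leaving out the arrays singly.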

Additional observations from a re-analysis of the deposited data

Results flagged for a closer look

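Of 21 groups of 4 values (7 genes in 3 groups), 3 held an array whose distance to the nearest of the others was unusually large for the group's range (Dixon's test). Chance flags about 1 group in 20. Car2 on young_AL 3 was -0.14, against -0.47 to -0.43 on the other young_AL arrays. Car4 on old_AL 1 was -7.74, not well above background, against -6.27 to -6.01 on the other old_AL arrays. Car8 on young_AL 1 was -0.65, against -0.36 to -0.32 on the other young_AL arrays.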

How the results depend on the processing

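Over all genes, the number called for old_AL against young_AL (676, 61.5% of them higher) was 4 on 12 arrays, 1067 after quantile normalization (22.9% higher), 2968 after median centring (13.1% higher), 3838 after normexp (86.3% higher), 27 in a fit of the compared groups alone, and 70 to 401 without 1 array. For old_CR against old_AL (222, 25.2% higher) it was 1 on 12 arrays, 393 after quantile normalization (69.5% higher), 2107 after median centring (86.7% higher), 4732 after normexp (506 higher), 128 with no filter, 370 when every array had to be well above background, 0 for the groups alone (limma), and 1 to 919 without 1 array, the most without old_AL 2. For old_CR against young_AL (503) it was 4 on 12 arrays, 226 with no filter, 836 for the groups alone, and 42 to 862 without 1 array. Median centring moved the median of all genes from 0.03 to -0.07 with age and from -0.05 to 0.05 with diet. Of the genes in the pathway lists, the count with age (2) was 0 on 12 arrays, 11 after normexp, 1 with no filter, 0 for the groups alone and 0 to 2 without 1 array. With diet (1) it was 0 on 12 arrays, 2 after quantile normalization, 6 after median centring, 12 after normexp, 0 for the groups alone and 0 to 2 without 1 array. For old_CR against young_AL (1) it was 0 on 12 arrays or after quantile normalization, 2 after normexp, 3 for the groups alone and 1 to 2 without 1 array. With old_AL 1 included, the age differences of Car1, Pvalb, Trpa1 and Des turned to -0.04, 0.09, -0.14 and -0.14. The cause of these changes was not tested. Of the differences of the 5 fitted members under all alternatives, 297 moved by less than the residual SD and 15 by more, and these 15 values are given beside each gene.

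With the replicate block, 20, 1 and 17 genes were called in the 3 comparisons, and 0 pathway genes in each. Arrays of the same number did not deviate together (correlations from -0.09 to 0.09 over 10 pairs, against -0.13 to 0.10 over 30 pairs of different numbers). A slide block was not run, since it could not be fitted in the comparisons with young_AL. Dim signal limits Car3, Car12 and, in old_CR, Car4.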
